A study of Sus scrofa with 10 samples.

Results

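Hepcidin and the genes that carry, store and recover iron were followed in the livers of 10 pigs. The genes were selected on their symbols, 8 in all (*HAMP*, *TF*, *TFRC*, *FTH1*, *FTL*, *CP*, *SLC40A1* and *HPX*), and a probe set was taken when the platform annotation gave it 1 of these symbols and no other. The symbols were chosen by a reading of earlier results of the same arrays, so the levels of the members are given as a description, and every adjusted p is the one over all genes of the array. Of the 23999 porcine probe sets on the array, 8 met the rule, and they covered 6 of the 8 symbols. *CP* and *SLC40A1* are not analysed here. The single probe set of *TFRC*, the transferrin receptor, lay at 2.19 on all 10 arrays, the lowest value of the array, so its level is not known. Such a reading does not bound the level of a gene. *JAK1* and *FBXL5* each had 1 probe set at 2.19 and another with a mean of 10.94 and 11.33. The annotation places the probe sets of *TF* in 2 genes, transferrin itself and a second gene with the synonym PICA, an inhibitor of carbonic anhydrase in the pig that belongs to the transferrin family. It is called *TF* (PICA) here. This left 6 member genes, out of 4731 genes on the array with a mean log2 intensity of at least 4, the limit set for a gene to be tested.

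The animals were females of a backcross, in which Iberian boars of the Guadyerbas line were mated to Landrace sows and their F1 sons again to Landrace sows, raised under the same standard feeding and management and slaughtered at a similar age. H and L were the extremes of the first principal component of carcass quality and of the fatty acids of the muscle, with more polyunsaturated fatty acids in H and more saturated and monounsaturated fatty acids in L. Total RNA of the liver of 5 H and 5 L animals was hybridised, 1 array per animal. The groups differ in muscle composition and not in an iron treatment, and no measure of the iron status of the animals was used here. Some animals of opposite groups were sibs, and the sources used here do not say which.

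The liver is the main source of hepcidin, the peptide hormone encoded by *HAMP*. Hepcidin binds ferroportin, the iron exporter, and causes its removal from the cell surface, which holds iron inside enterocytes and macrophages. In mammals its transcription rises with iron through bone morphogenetic proteins and SMAD proteins and with inflammation through interleukin 6 and STAT3. Hepatocytes also secrete transferrin, the iron carrier of plasma, and hemopexin, the heme carrier, and they store iron in ferritin, a shell of heavy (*FTH1*) and light (*FTL*) chains.

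*HAMP* varied more between animals than any other member. Its log2 intensity was 9.70, 10.98, 6.01, 8.38 and 3.49 in animals H1 to H5, against 10.08, 8.48, 9.61, 8.24 and 9.01 in animals L1 to L5. The highest and the 2 lowest values were all in H, while the 5 L animals lay close together inside the range of H, so the groups overlapped. Between H5 and H2 the span was 7.49 log2 units, or 180-fold. The SD over the 10 animals was 2.18, the rank of 7 from the top among the 4731 genes, whose median SD was 0.22. The value of H5 was the closest to the lowest value of the array, where the background adjustment compresses differences.

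*HAMP* averaged 7.71 ± 2.99 in the H animals and 9.08 ± 0.77 in the L animals (n = 5 each, SD). The difference, H minus L, was -1.37 log2 units with a standard error of 1.22 and a 95% interval of -4.08 to 1.34, and it did not pass the test (limma, adjusted p = 0.985). The model takes 1 variance for both groups and moderates it towards that of other genes. With SDs as unlike as 2.99 and 0.77, the interval may be too narrow for *HAMP*. The difference was -0.32 without H5 and -2.19 without H2, so single animals set its size. In the test of H against L over all genes, 0 of 4731 (0.0%) had an adjusted p under 0.05 and 125 (2.64%) an unadjusted p under 0.05, and none of the 6 members was among them under either threshold (limma). In bulk liver, fewer cells of a type and less RNA per cell cannot be told apart.

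**Figure D1:**
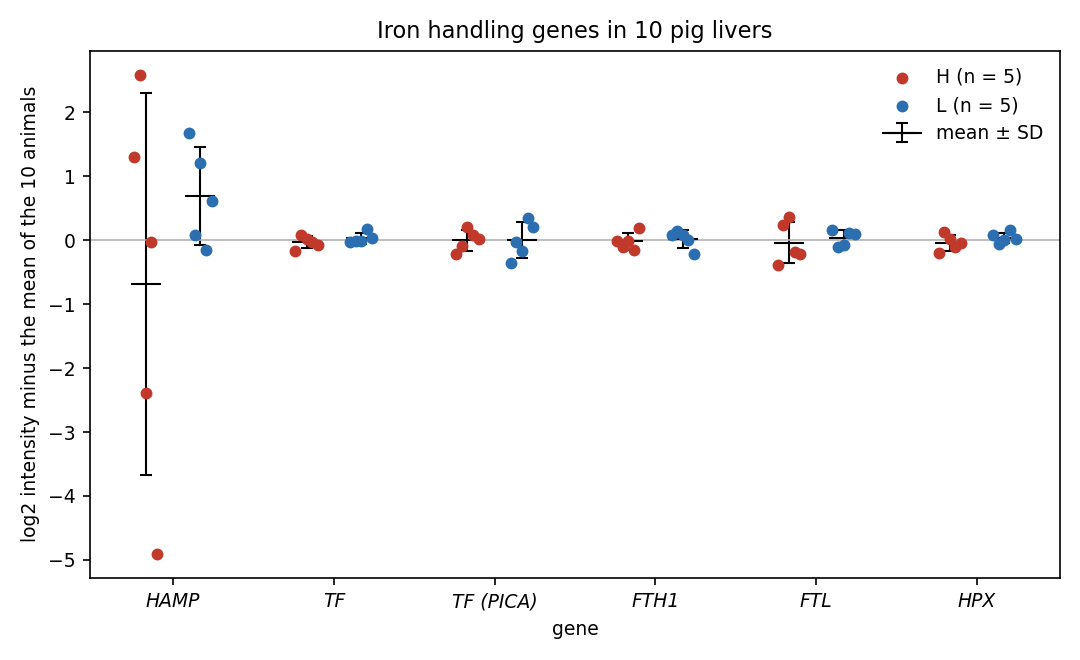
Log2 intensity of each member gene minus its mean over the 10 animals (y axis), 1 point per animal, with H in red and L in blue and bars for the mean ± SD of 5 animals. *HAMP* spans 7.49 log2 units, while the other 5 genes span less than 1.

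The carriers of plasma were among the brightest genes of the array and varied little. Transferrin, *TF*, had 14.95, 15.20, 15.13, 15.09 and 15.04 in H1 to H5, against 15.09, 15.10, 15.10, 15.29 and 15.15 in L1 to L5. H1 was the lowest and L4 the highest animal, and the groups overlapped. It averaged 15.08 ± 0.09 in the H animals and 15.15 ± 0.09 in the L animals (n = 5 each, SD), a difference of -0.07 with a standard error of 0.07. Over the 10 animals 5.28% of all genes had a smaller SD.

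Hemopexin, *HPX*, had 14.15, 14.48, 14.37, 14.25 and 14.30 in H1 to H5, against 14.43, 14.30, 14.36, 14.50 and 14.37 in L1 to L5. Again H1 was the lowest animal and L4 the highest, with overlapping groups. Its difference was -0.08 with a standard error of 0.08. The second gene of the transferrin family, *TF* (PICA), had 12.56, 12.68, 12.99, 12.86 and 12.79 in H1 to H5, against 12.43, 12.75, 12.61, 13.13 and 12.98 in L1 to L5. Both its lowest and its highest value were in L, and its difference was -0.00 with a standard error of 0.14 and an interval of -0.31 to 0.31. Another 2 probe sets were annotated to both *TF* and a further locus and were left out as ambiguous.

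The chains of ferritin were also bright, and the same limit holds for readings near the highest value. *FTH1* had 14.78, 14.68, 14.78, 14.64 and 14.98 in H1 to H5, against 14.88, 14.94, 14.87, 14.79 and 14.57 in L1 to L5. The highest value was that of H5, the animal with the least *HAMP*, and the lowest that of L5, and the groups overlapped. The difference was -0.03 with a standard error of 0.10. A further 5 probe sets that the annotation shares between *FTH1* and *HDHD2* were left out.

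*FTL* was measured by 2 probe sets. The brighter one had 14.62, 15.05, 14.83, 14.68 and 14.69 in H1 to H5, against 14.93, 14.66, 14.89, 14.87 and 14.86 in L1 to L5, and the dimmer one averaged 10.13 ± 0.51 in the H animals and 10.22 ± 0.18 in the L animals (n = 5 each, SD). The brighter probe set was highest in H2 and the dimmer one in H3, and both were lowest in H1. They correlated with each other over the 10 animals with r = 0.621. The SD over these animals was 0.14 for the brighter probe set and 0.37 for the dimmer one. The gene mean of both differed by -0.08 with a standard error of 0.15, and the groups overlapped. The limma intervals of the 5 members other than *HAMP* reached at most -0.40 at the lower end and 0.31 at the upper end. All 6 differences were below 0, as were those of most genes, since 1758 of the 4731 genes were above 0 and the median over all genes was -0.04.

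**Figure D2:**
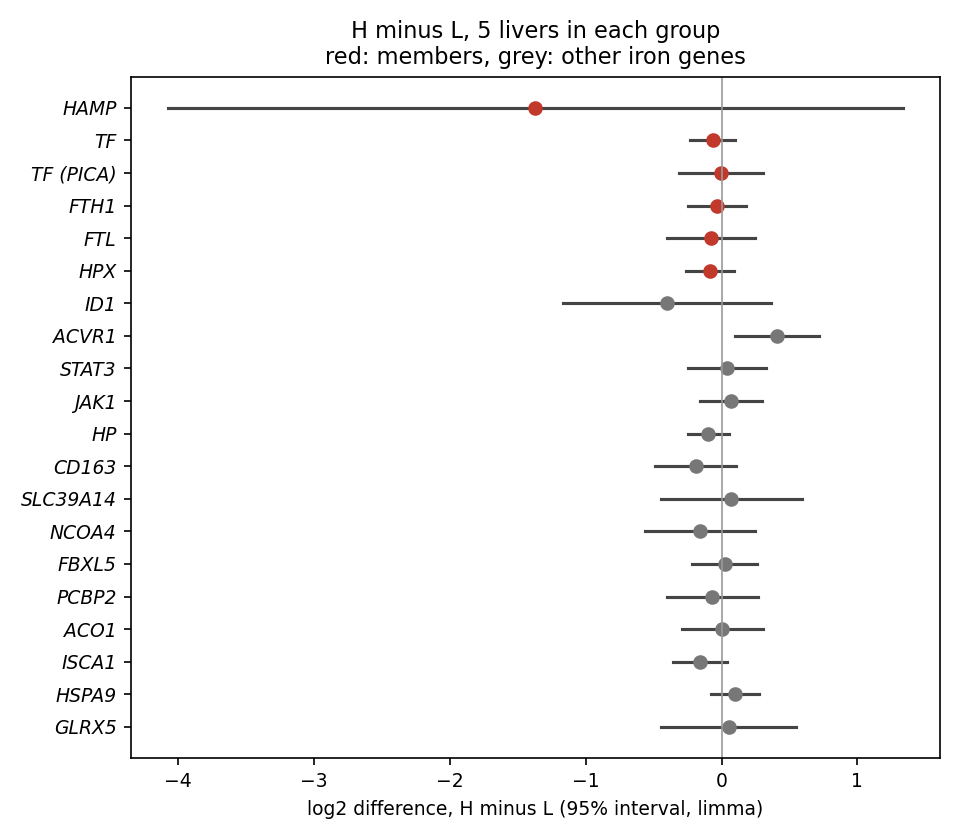
Difference in log2 intensity, H minus L (x axis), with its 95% interval from limma, for the 6 member genes (red) and 14 other iron genes taken by the rule for named genes (grey). All intervals but that of *ACVR1* include 0, and that of *HAMP*, -4.08 to 1.34, is the widest.

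The other genes of iron metabolism came from 4 lists with 79 genes, of which 41 had a probe set and 35 were bright enough to be tested. Between H and L, 0 of the 35 passed the adjusted threshold, and at an unadjusted p under 0.05 there was 1 higher in H and 0 lower (limma). Over all genes 38 (0.803%) were higher and 87 (1.84%) lower in H at that threshold. The median difference of the 35 was -0.03, beside -0.04 over all genes. The 1 gene was *ACVR1*, a type I receptor for bone morphogenetic proteins. Its log2 intensity was 9.77, 9.64, 9.89, 9.57 and 10.04 in H1 to H5, against 9.26, 9.46, 9.07, 9.31 and 9.76 in L1 to L5. Only L5 among the L animals reached the values of H. The difference was 0.41 (standard error 0.14), with an adjusted p of 0.985 in limma.

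In the list of hepcidin control 9 of 27 genes were tested, and they lay between -0.40, for *ID1*, a target of bone morphogenetic protein signalling, and 0.41, for *ACVR1*. The receptor *BMPR1A* and the signal carriers *SMAD1* and *SMAD4* had differences of -0.07, -0.01 and 0.04. For *STAT3*, which carries the signal of interleukin 6, and *JAK1*, the kinase upstream of it, they were 0.04 and 0.07. In the list of iron transport 8 of 22 genes were tested, and they lay between -0.28, for the mitochondrial iron importer *SLC25A37*, and 0.21, for the divalent metal transporter *SLC11A2*. Haptoglobin, *HP*, which binds free haemoglobin, differed by -0.10 and its receptor *CD163* by -0.19. None of these passed the test.

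Storage and sensing of iron was covered by 8 of 11 genes, with differences between -0.16 and 0.05. The most negative gene mean was that of *NCOA4*, which delivers ferritin for degradation, at -0.16 with a standard error of 0.18. The most positive was that of *IREB2*, an iron regulatory protein, at 0.05. The probe sets of *PCBP2*, whose gene mean differed by -0.07, disagreed. The brighter one differed by -0.24 with a standard error of 0.09 and the dimmer one by 0.11 with a standard error of 0.27. Both had an adjusted p of 0.991 over all probe sets (limma). The assembly of iron-sulphur clusters was covered by 10 of 19 genes, with differences between -0.16, for *ISCA1*, and 0.10, for the chaperone *HSPA9*. *GLRX5*, also among the brightest of this list, differed by 0.05.

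The next question was whether the other iron genes follow *HAMP* over the animals. The *HAMP* value was used as a continuous covariate for the 4730 other genes, and Pearson's r and Spearman's rho were tested by two-sided permutation tests over the 10 animals for 109 genes, all members and listed genes that were measured. The permutation p values were not adjusted for these 109 genes, so some small ones arise without any relation. In the fit over all genes, 0 of 4730 (0.0%) passed an adjusted p under 0.05, with 0.408 as the smallest, and 302 (6.38%) had an unadjusted p under 0.05, of which 150 (3.17%) rose and 152 (3.21%) fell with *HAMP* (limma). H3 and H5 were the animals farthest from the median of *HAMP*, 8.75. Leaving both out was an alternative chosen after seeing the data, and it narrows the range of *HAMP* over which r is taken.

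None of the 5 other members had an adjusted or an unadjusted p under 0.05 with *HAMP* in limma. For *TF* r was 0.13 (permutation test, p = 0.701) and rho was -0.02 (p = 0.966), with r = -0.19 without H3 and H5, and leaving out 1 animal turned its direction, to -0.15 without H5 against 0.35 without H1. *FTL* had r = 0.10 (permutation test, p = 0.774) and rho = 0.16 (p = 0.657), with r = 0.33 without H3 and H5, and its direction also turned, to -0.26 without H5 against 0.41 without H3. The 2 probe sets of *FTL* gave r = 0.45 for the brighter and r = -0.04 for the dimmer. *HPX* had r = 0.20 (permutation test, p = 0.584), rho = 0.16 (p = 0.655) and r = 0.21 without H3 and H5, and its r lay between 0.028 without H2 and 0.45 without H1.

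The remaining 2 members had negative values. *FTH1* had r = -0.43 (permutation test, p = 0.223) and rho = -0.27 (p = 0.448). Its r was -0.02 without H3 and H5 and -0.047 without H5 alone, so the value depended on which animals were kept. *TF* (PICA) had an r of -0.42 (permutation test, p = 0.225), a rho of -0.75 (p = 0.0177) and r = -0.68 without H3 and H5. Its adjusted p over all genes was 0.880 (limma). Without H5 its r was -0.67, and it was then the 1 member with an unadjusted p under 0.05 in limma (adjusted p = 0.722). With each group centred on its mean, r was 0.00 for *TF*, -0.45 for *TF* (PICA), -0.50 for *FTH1*, 0.05 for *FTL* and 0.07 for *HPX*.

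Over the 4 iron lists, 2 of the 35 genes rose and 1 fell with *HAMP* at an unadjusted p under 0.05, and 0 passed the adjusted threshold. Their median r was 0.05, beside 0.04 over all genes. By list, the median r was 0.11 for hepcidin control, 0.15 for transport, 0.34 for storage and sensing and 0.03 for iron-sulphur clusters.

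*ID1* had the highest r of the 35. Its log2 intensity was 10.76, 10.44, 9.32, 10.09 and 9.17 in H1 to H5, against 10.65, 10.40, 10.76, 10.53 and 9.48 in L1 to L5. The animals with the least *HAMP*, H5 and H3, also had the least *ID1*, followed by L5, whose *HAMP* was not low. Over the 10 animals r was 0.78 (permutation test, p = 0.00514) and rho 0.70 (p = 0.0303), and the adjusted p over all genes was 0.641 (limma). The value of r was 0.76 with each group centred, 0.67 without H5, 0.90 without L5 and 0.32 without H3 and H5. It thus depended on which animals were kept.

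*ACO1*, the iron regulatory protein that is also the cytosolic aconitase, had 10.23, 10.76, 10.16, 10.21 and 10.12 in H1 to H5, against 10.32, 10.07, 10.50, 10.17 and 10.40 in L1 to L5. H2, with the most *HAMP*, stood above the rest. Its r was 0.64 (permutation test, p = 0.0510) and its rho 0.78 (p = 0.0101), with r = 0.82 without H3 and H5 and an adjusted p of 0.778 over all genes (limma). Its brighter probe set, at a mean of 12.19, gave r = 0.15, and the dimmer one, at 8.40, gave r = 0.67, so the relation was that of 1 probe set. *ACVR1* fell with *HAMP*, with r = -0.60 (permutation test, p = 0.0631) and rho = -0.42 (p = 0.231), but r was 0.07 without H3 and H5.

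*STAT3* had 11.19, 11.69, 11.16, 11.07 and 11.19 in H1 to H5, against 11.46, 11.04, 11.30, 11.15 and 11.16 in L1 to L5. H2 and L1, the 2 animals with the most *HAMP*, were also the highest for *STAT3*. Over the 10 animals r was 0.49 (permutation test, p = 0.139) and rho 0.60 (p = 0.0728), and r was 0.93 without H3 and H5 and 0.29 without H2. Of the genes that sense iron, *IREB2* had r = 0.54 (permutation test, p = 0.110), and 0.68 without H3 and H5. *NCOA4* had r = 0.51 (permutation test, p = 0.115), but 0.32 without H3 and H5 and 0.024 without H5 alone. *FBXL5*, which marks an iron regulatory protein for degradation, had r = 0.45 (permutation test, p = 0.205), but 0.15 without H3 and H5.

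**Figure D3:**
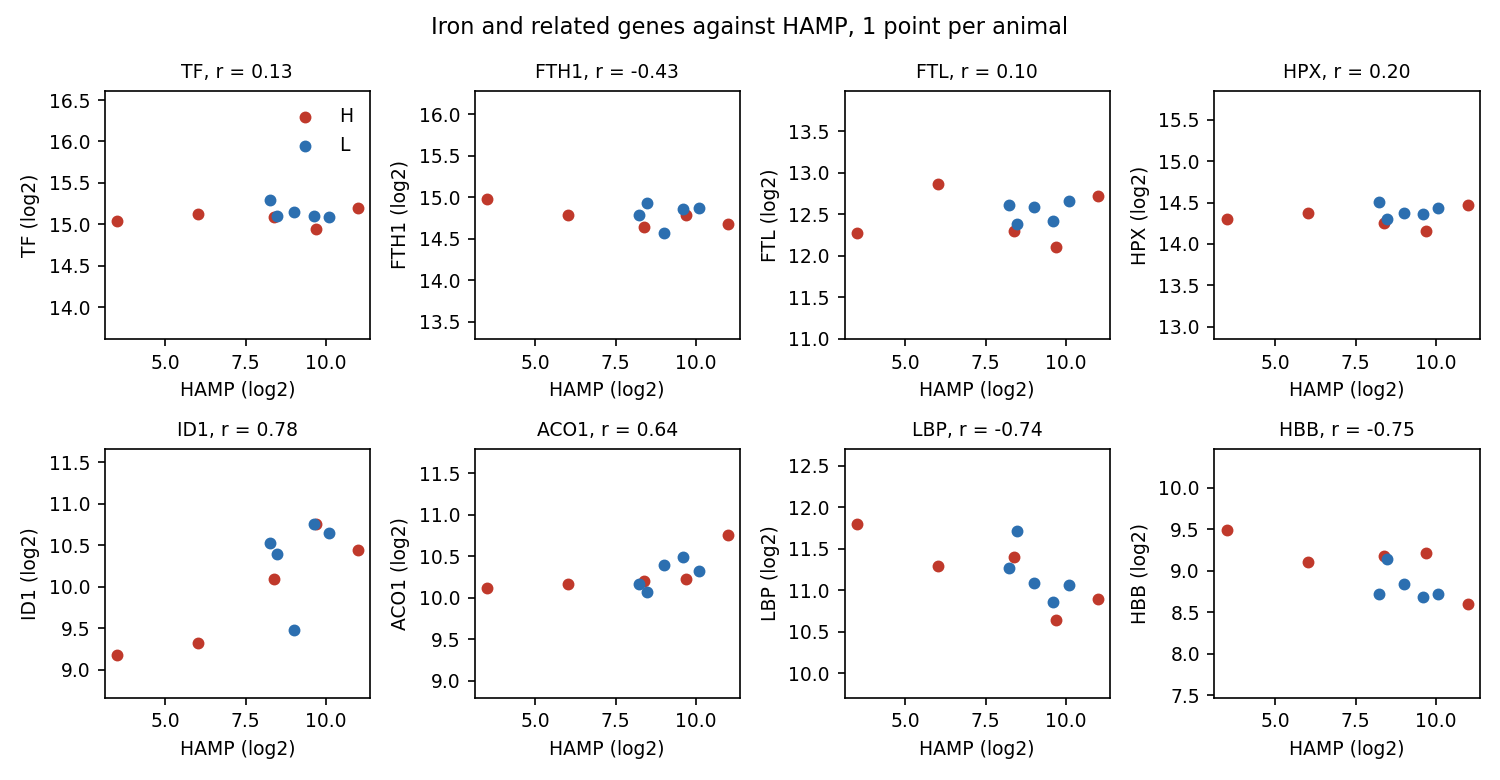
Log2 intensity of 8 genes (y axes, each 3 units high) against the log2 intensity of *HAMP* (x axes), 1 point per animal, with H in red and L in blue. The upper row shows members with r between -0.43 and 0.20, and the lower row *ID1*, *ACO1*, *LBP* and *HBB* with r of 0.78, 0.64, -0.74 and -0.75.

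**Figure D4:**
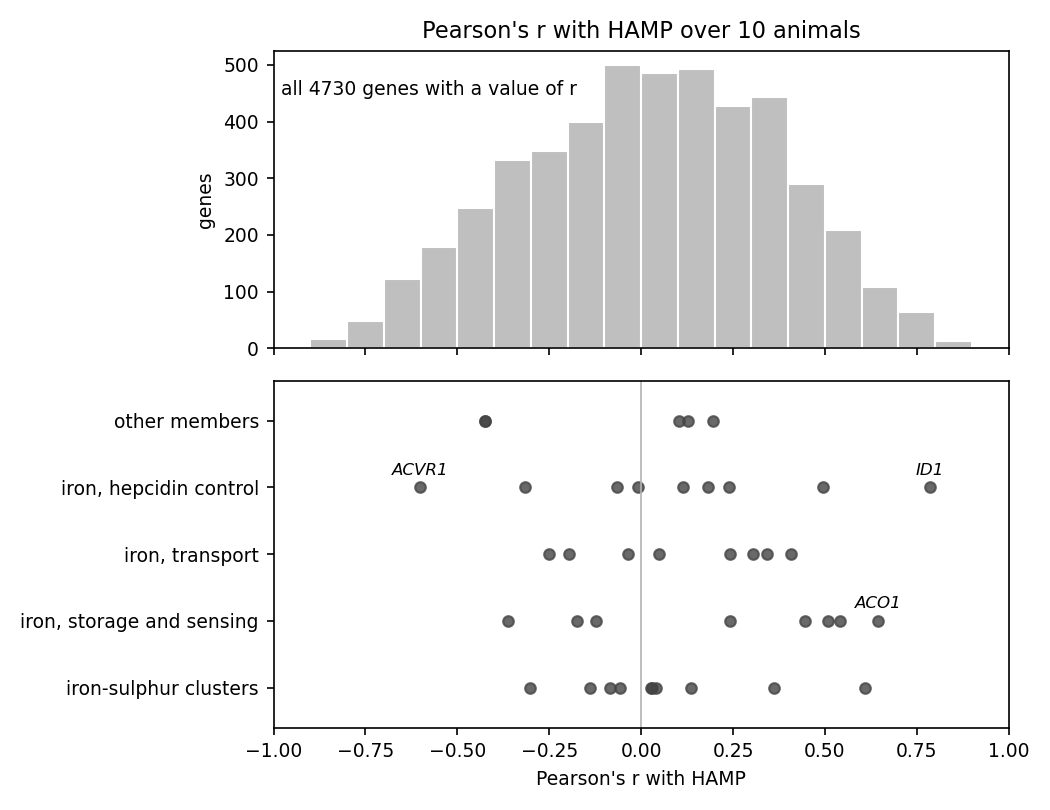
Pearson's r with *HAMP* over 10 animals (x axis), as a histogram over 4730 genes (upper panel, number of genes) and as 1 point per gene for the other members and the 4 iron lists (lower panel). The iron genes lie within the range of all genes, with *ID1* at 0.78 and *ACVR1* at -0.60 at their ends.

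As inflammation also acts on hepcidin, proteins of the acute phase were set beside it. Of 25 listed positive acute phase genes 20 were tested, with a median r of 0.02, and at an unadjusted p under 0.05 there were 0 that rose and 2 that fell with *HAMP* in limma, beside 3.17% and 3.21% of all genes. Beside haptoglobin, given below, the brightest were *C3* and *FGB*, with r = 0.27 and 0.05, and 0.01 and -0.06 without H3 and H5. *CEBPD*, *CEBPB* and C-reactive protein were named with their values in view. *CEBPD*, a transcription factor of the acute phase, had r = 0.50 (permutation test, p = 0.134) and rho = 0.71 (p = 0.0268), with r = 0.39 without H3 and H5. Its probe sets disagreed, with r = 0.73 for the brightest and 0.41 and -0.06 for the others. *CEBPB*, of the same list, had r = 0.35 (permutation test, p = 0.327) and rho = 0.53 (p = 0.124), with r = 0.97 without H3 and H5. C-reactive protein, *CRP*, had r = -0.05, which turned to 0.46 without H3 and H5, and haptoglobin had r = 0.30 and 0.38 without them. The 2 that fell, named after their values were seen, were *LBP*, the lipopolysaccharide binding protein, and *CFB*, complement factor B. *LBP* was 10.65, 10.89, 11.29, 11.40 and 11.80 in H1 to H5, against 11.07, 11.72, 10.86, 11.26 and 11.08 in L1 to L5.

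H5, lowest for *HAMP*, was the highest animal for *LBP*, and H1 was the lowest. Its r was -0.74 (permutation test, p = 0.0126), its rho -0.79 (p = 0.00881) and its r without H3 and H5 -0.70, with an adjusted p of 0.743 over all genes (limma). *CFB* had r = -0.82 (permutation test, p = 0.00142) and rho = -0.89 (p = 0.00126), and r = -0.79 without H3 and H5, with an adjusted p of 0.641 (limma). Its probe sets disagreed, with r = -0.08 for the brighter, at a mean of 14.60, and r = -0.83 for the dimmer one, at 10.32. Of the 9 listed negative acute phase genes 8 were tested, and 1 of them, *SERPINA7*, the thyroxine-binding globulin, fell with *HAMP*, with r = -0.89 (permutation test, p = 0.00014) and rho = -0.82 (p = 0.00515), r = -0.78 without H3 and H5 and an adjusted p of 0.641 (limma).

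Markers of other cells and a measure of the RNA were set beside *HAMP* too. Of 17 listed erythroid genes 2 were tested, *HBB* and *HBM*, and their mean log2 level was 6.68 to 7.23 in H and 6.66 to 6.95 in L, with r = -0.78 with *HAMP* (permutation test, p = 0.00563), rho = -0.61 (p = 0.0654) and r = -0.51 without H3 and H5. *HBB* alone had r = -0.75, with an adjusted p of 0.743 over all genes (limma), and *HBM* r = -0.33. *HBM* read 4.75 in H2, H4, H5, L1 and L2 alike, so it does not resolve these animals. The erythroid genes *ALAS2*, *AHSP* and *KLF1* had means of 2.89, 2.78 and 2.19, at or near the lowest value. *HBB*, the beta chain of haemoglobin, was 9.21, 8.60, 9.10, 9.18 and 9.49 in H1 to H5, against 8.71, 9.14, 8.69, 8.72 and 8.84 in L1 to L5. It was highest in H5 and lowest in H2, the reverse of *HAMP*.

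The Kupffer cell and macrophage genes, 11 of 20 tested, had mean log2 levels of 9.06 to 9.67 in H and 9.21 to 9.68 in L, with r = -0.39 with *HAMP* (permutation test, p = 0.281) and r = -0.13 without H3 and H5. *MARCO* and *SIGLEC1* had means of 2.19 and 2.21, at or near the lowest value. The T and NK cell genes, 3 of 14 tested, had levels of 4.83 to 5.59 in H and 5.08 to 5.64 in L, with r = -0.58 (permutation test, p = 0.0804) and rho = -0.59 (p = 0.0808), and r = -0.47 without H3 and H5. The stellate cell genes, 6 of 12 tested, had levels of 7.51 to 7.67 in H and 7.16 to 7.96 in L, with r = -0.34 (permutation test, p = 0.339) and rho = -0.59 (p = 0.0801), and r = -0.52 without these animals. None of the T cell markers *CD3D*, *CD3E* and *CD3G* was bright enough to be tested. Of the 3 T and NK cell genes that were, 2 repeated 1 value over animals. *CD247* read 5.06 in H1, H5, L1, L4 and L5, and *KLRK1* read 5.83 in H1, H3, L4 and L5. Such readings do not resolve these animals. The B and plasma cell genes, 2 of 10 tested, had r = 0.45 (permutation test, p = 0.187), and 0.51 without H3 and H5. For the bile duct genes, 2 of 8 tested, r was 0.33 (permutation test, p = 0.358), and -0.27 without H3 and H5. The endothelial genes, 7 of 16 tested, had r = -0.19 (permutation test, p = 0.578), and 0.02 without H3 and H5. The hepatocyte genes, 16 of 19 tested and with *ALB* averaging 15.53 in the H animals and 15.60 in the L animals, were bright, as the labelled tissue would have it, and had r = 0.39 (permutation test, p = 0.268), and 0.70 without H3 and H5. The difference between the 3′ and the 5′ probe sets of *GAPDH*, a sign of RNA integrity, was 1.70 to 2.39 in H and 1.68 to 2.70 in L, and had r = 0.58 with *HAMP* (permutation test, p = 0.0743) and rho = 0.68 (p = 0.0352), with r = 0.72 without H3 and H5. The part of these measures in the relations with *HAMP* was not tested for the lists of cells, and with the *GAPDH* difference as a covariate the count of genes at an unadjusted p under 0.05 was 170 in place of 302.

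The genes nearest to *HAMP* over the 10 animals, by Pearson's r over all genes, were *HSPD1*, a mitochondrial chaperonin, with 0.88, *MED19*, a subunit of the Mediator complex, with 0.87, and *UBE4B*, *TMEM222* and *UBE2D4* with 0.86, 0.85 and 0.84. At the other end were *TPD52* with -0.93, *THOC7* with -0.91, *SERPINA7*, *CERS2*, a ceramide synthase, with -0.88, and *DYNLT3* with -0.86. Without H3 and H5 these values were 0.51, 0.82, 0.59, 0.78 and 0.68 for the positive genes in that order, and -0.65 for *TPD52*, -0.80 for *THOC7*, -0.89 for *CERS2* and -0.93 for *DYNLT3*. The brightest probe set of *CERS2* gave r = 0.032. These genes are given as the extremes of 4730 values, and none passed the adjusted threshold.

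The members other than *HAMP* were also set against each other, in 10 pairs. *TF* and *HPX* had r = 0.87 (permutation test, p = 0.00116) and rho = 0.75 (p = 0.0155), and *FTL* and *HPX* had r = 0.81 (p = 0.00411) and rho = 0.81 (p = 0.0074). Without H1 and L4, the animals farthest from the median of *HPX*, r was 0.65 for *TF* and 0.77 for *FTL*. With *HPX* as the covariate over all genes, a fit chosen after the values were seen, the adjusted p was 0.377 for *TF* and 0.288 for *FTL* (limma), 0 of 4730 genes (0.0%) passed the adjusted threshold, and 412 (8.71%) rose with *HPX* at an unadjusted p under 0.05, so that *TF* and *FTL* were among many.

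Other bright genes of hepatocytes were related to *HPX* to different degrees. *ALB* correlated with *HPX* with r = 0.93, and H1 was its lowest and L4 its highest animal, as for *TF* and *HPX*. *HP* had r = 0.74 with *HPX* and *APOA1* r = 0.62. Among the 57 genes with a mean of at least 14, 36 had r above 0 and the median r with *HPX* was 0.26, beside 0.15 over all genes. *FTH1*, the heavy chain of ferritin, had r = -0.10 with *HPX* and r = -0.24 with *FTL*, its light chain (permutation test, p = 0.499).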

How the data were processed

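Liver RNA of 10 females, 5 H and 5 L, was hybridised to GeneChip Porcine arrays. The authors generated the values with GCOS and adjusted and normalized them with GCRMA, and the submitters' processing notes also name RMA. Their versions are not given in the sources used here. As deposited, the table has log2 intensity values of 24123 probe sets, 124 of them controls, and all 10 columns were used. Array medians lay between 3.78 and 3.85, and pairs of arrays correlated with r of 0.966 to 0.987. The number of arrays limits the precision.

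Probe sets were named by the platform annotation, with 10069 given 1 symbol, 198 several and 13732 none, and 9961 were matched by Entrez ID to a RefSeq table, which changed 0 symbols. Probe sets of a gene with a mean of at least 4 were averaged. H and L, and the relation to *HAMP*, were tested with the moderated linear model of limma 3.58.1 (R 4.3.3), two-sided, with Benjamini-Hochberg adjustment over all genes and a threshold of 0.05, checked first on simulated data. Permutation tests used 100000 resamples in Python 3.11.15 with numpy 2.4.6, and their p values were not adjusted. The level of a list of cell markers is the mean log2 value of its tested genes. The members and lists were chosen with earlier results of these data known. Named genes are all members, of each iron and acute phase list the 3 brightest, the iron genes with an unadjusted p under 0.05, and the 5 highest and 5 lowest r with *HAMP*; any other gene was named with its value in view. Alternatives covered other filters, normalizations, array weights, priors and probe set rules, the *GAPDH* difference and the animal number as terms, and leaving out animals. Kinship was not modelled, and no hybridisation batch was given. No sequences or coordinates were used.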

Additional observations from a re-analysis of the deposited data

Results flagged for a closer look

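In the 38 named genes, each group of 5 animals was searched for a highest or lowest animal whose gap to the next one exceeded Dixon's critical share of 0.71 of the group's range, and 7 of 76 groups had one. For independent normal values about 1 in 20 groups would have one. Some of these genes were chosen for their r with *HAMP* or with their values in view, and several flags share an animal. The share over all genes was not computed, so no excess is read from the 7. H2, the animal with the most *HAMP*, stood above the other H animals for *STAT3* at 11.69, for the metal transporter *SLC39A14* at 9.83 and for *ACO1* at 10.76. L5 stood below the other L animals for *ID1* at 9.48. The others were L2, low for *NCOA4* at 11.17, L3, high for *PCBP2*, an iron chaperone, at 11.78, and L1, high for *UBE2D4* at 5.23. No member gene had such an animal, *HAMP* in H included.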

How the results depend on the processing

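Under all alternatives counted, 0 genes were called between H and L or with *HAMP*, and no member was called. The relation to *HAMP* was also fitted on the linear scale, and calls were not counted for that fit. Leaving out each animal in turn, the *HAMP* difference lay between -2.19 and -0.32. Counts at an unadjusted p under 0.05 moved more. Between H and L there were 125, against 213 without H2 and 281 without L2, and with *HAMP* there were 302, against 170 without H2 and 170 with the *GAPDH* difference as a covariate. With *HPX*, 2 genes were called after quantile normalization and 3 without H1 and L4, against 0 otherwise. Without H5, 1 member, *TF* (PICA), had an unadjusted p under 0.05 with *HAMP*. Some directions turned, those of r of *TF* and *FTL* with *HAMP* among them, at -0.15 and -0.26 without H5. Leaving out each animal in turn, the H minus L difference lay between -0.15 (without H2) and 0.16 for *SLC39A14* and between -0.11 (without H2) and 0.058 for *ACO1*. With the brightest probe set the difference was -0.018 for *HSPA9* and -0.24 for *PCBP2*. Without H3 and H5, an alternative chosen after seeing the data, r with *HAMP* was 0.069 for *ACVR1*, 0.43 for *PCBP2* and -0.74 for *ISCA1*, and with 1 animal left out it lay between -0.37 and 0.54 (without H5) for *PCBP2* and between -0.42 (without H5) and 0.64 for *ISCA1*. With the brightest probe set r was 0.68 for *HSPA9* and 0.032 for *CERS2*. The cause was not tested.

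The animal numbers were not taken as pairs. The deviations of animals with the same number correlated with r between -0.24 and 0.28. Only for H4 was the closest L animal the one with the same number. These values cannot show whether any numbers join sibs. With the number as a block, 0 genes and 0 probe sets were called, 140 genes had an unadjusted p under 0.05 between H and L and 286 with *HAMP*, the *HAMP* difference was -1.37, and r of *FBXL5* with *HAMP* was -0.058. Probe sets near the lowest value of 2.19 understate differences, and for *HAMP* H5, at 3.49, is the animal this touches most. Some genes also repeated 1 value in several animals well above 2.19. They include *DES* at 4.53, *HBM* at 4.75, *CD247* at 5.06, *KLRK1* at 5.83 and *MED19* at 6.58. Differences among the animals with such a repeated value are not resolved.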
